A study of Mus musculus with 8 samples.

Results

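Neurexins, neuroligins and LRRTMs are membrane proteins that join the 2 sides of a synapse. The 9 genes described here, out of 24343 in the deposited table, are the neurexins Nrxn2 and Nrxn3, the neuroligins Nlgn1, Nlgn2 and Nlgn3, and the leucine-rich repeat transmembrane neuronal proteins Lrrtm1, Lrrtm2, Lrrtm3 and Lrrtm4. They were taken by their gene symbols, by a rule with no threshold on their values, and all 9 passed the minimum of 1 FPKM (sequenced fragments scaled to transcript length and library size) set for testing. Bulk RNA-seq had been made from whole brains of 3 C57BL/6NCrl mice aged 56–62 days, an inbred strain, and mice 1, 2 and 3 gave 3, 3 and 2 libraries. The mice were untreated, were kept under a single condition and carry no named allele, so that the only groups are the individual animals. Only RNA with an integrity score over 8 had been sequenced. The sources do not say how the libraries of a mouse differ from each other, and the sex of the animals is not in the labels.

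Neurexins lie mainly in the presynaptic membrane, and neuroligins and LRRTMs lie in the postsynaptic membrane and bind neurexins across the cleft. Neurexin genes make long and short proteins from separate starts, and alternative splicing of their transcripts changes which partners they bind. Nlgn1 protein is found mostly at excitatory synapses, Nlgn2 mostly at inhibitory synapses and Nlgn3 at both, whereas LRRTMs are known from excitatory synapses.

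The libraries of mouse 3 stood apart from the others before any of these genes was considered. Each library held 1.31 to 2.02 gigabases on annotated transcripts, and 12728 to 13006 genes reached 1 FPKM. Relative to the other libraries, longer transcripts were lower in mouse 3, with Spearman rank correlations across genes of length against deviation of -0.36 and -0.57 in libraries 1 and 2 of mouse 3 and of 0.18 to 0.50 in the other 6 libraries. All 21 markers of neurons, astrocytes, oligodendrocytes, microglia and endothelial cells were above 0 in every library. The summed level of 5 neuron markers was 1409 to 1513 FPKM in mouse 3 and 1634 to 1769 FPKM in the other mice. The 4 astrocyte markers summed to 501 to 540 FPKM in mouse 3 and 337 to 371 FPKM in the others, and the 4 oligodendrocyte markers to 3676 to 4561 and 1902 to 2100 FPKM. The sum of 4 endothelial markers was 37.1 to 38.6 against 23.0 to 30.6 FPKM, and that of 4 microglia markers 51.5 to 52.5 against 44.2 to 49.9 FPKM, although single markers of both sets did not all differ (Csf1r 17.7, 16.2 and 16.8 FPKM in mice 1 to 3). In bulk tissue, fewer cells of a type and less RNA per cell cannot be told apart.

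The genes differ widely in size (positions on GRCm38, counted from 1). Nrxn3 is the longest of the 9, at chr12:88794504-90334933 on the plus strand (1540.4 kb), followed by Nlgn1 at chr3:25431841-26331909 on the minus strand (900.1 kb) and Lrrtm4 at chr6:80018877-80810143 on the plus strand (791.3 kb). Nrxn2 lies at chr19:6418738-6533217 (plus, 114.5 kb), Nlgn2 at chr11:69823123-69834849 (minus, 11.7 kb) and Nlgn3 at chrX:101299179-101321350 (plus, 22.2 kb). Lrrtm1 at chr6:77242717-77245517 (plus), Lrrtm2 (minus, 6.0 kb) and Lrrtm3 at chr10:63928497-64090255 (minus) each lie inside an alpha-catenin gene, Ctnna2, Ctnna1 and Ctnna3, on the opposite strand. Alpha-catenins link cadherins to actin. Lrrtm4 lies inside none of them.

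Nrxn3 differed most between the mice, and its transcripts have 3 annotated starts. The second start lies 158.9 kb downstream of the first, and the third a further 859.1 kb downstream. The 3 windows around these starts are shown because the transcripts described below are annotated from them. Whether transcription begins at these positions was not tested. Each window holds 250 bases before the annotated start in lower case and the 50 bases from the start on in capitals, 5′ to 3′ on the plus strand, from RefSeq on GRCm38.p6.
NM_001198587, chr12:88794254-88794553: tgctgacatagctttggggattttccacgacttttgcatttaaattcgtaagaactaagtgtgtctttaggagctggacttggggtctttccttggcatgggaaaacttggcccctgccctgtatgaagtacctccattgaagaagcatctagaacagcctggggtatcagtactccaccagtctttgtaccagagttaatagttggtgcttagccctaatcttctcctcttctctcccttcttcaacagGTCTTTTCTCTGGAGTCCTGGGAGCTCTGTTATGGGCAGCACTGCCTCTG
NM_172544, chr12:88953140-88953439: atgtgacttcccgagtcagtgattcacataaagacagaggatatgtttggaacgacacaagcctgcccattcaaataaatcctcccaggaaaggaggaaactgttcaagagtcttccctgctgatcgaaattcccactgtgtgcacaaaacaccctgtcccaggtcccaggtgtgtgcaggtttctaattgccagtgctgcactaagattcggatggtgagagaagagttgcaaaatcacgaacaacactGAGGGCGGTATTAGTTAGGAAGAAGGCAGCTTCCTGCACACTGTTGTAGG
NM_001252074, chr12:89812233-89812532: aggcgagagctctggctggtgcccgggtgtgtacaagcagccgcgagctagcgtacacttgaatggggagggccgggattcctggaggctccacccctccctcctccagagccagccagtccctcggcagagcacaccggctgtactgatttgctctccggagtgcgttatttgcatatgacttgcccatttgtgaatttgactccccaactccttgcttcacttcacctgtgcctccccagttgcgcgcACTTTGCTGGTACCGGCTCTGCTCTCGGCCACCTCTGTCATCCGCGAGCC
The 3 windows differ in base composition. The dinucleotide CG occurs 2 times in the first window, 6 times in the second and 16 times in the third, which was reached or exceeded by 85.9%, 56.4% and 33.0% of 32851 windows of the same length (median 7). GC content was 47.3%, 47.7% and 60.7%. The letters TATAAA, searched on both strands, are in none of the 3 windows and in 13.6% of all windows. In the first window, the letters AG stand directly before the annotated start, as they do in 6.07% of all windows. These are matches of letters and say nothing on which factors bind there.

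The presynaptic members Nrxn2 and Nrxn3 had the highest mean FPKM of the 9 genes, but Nrxn3 was above Nlgn2 in only 2 of 3 mice and 6 of 8 libraries. When only the highest transcript of each gene was taken, Nlgn2 (34.7 FPKM) was above Nrxn2 (31.8 FPKM) and Nrxn3 (16.4 FPKM). Nrxn2 reached 47.1, 42.7 and 43.9 FPKM in libraries 1 to 3 of mouse 1, 43.2, 40.4 and 43.7 FPKM in those of mouse 2, and 38.2 and 31.1 FPKM in those of mouse 3 (mean 40.6 ± 5.22 FPKM, SD, n = 3 mice). Nrxn3 reached 42.1, 44.1 and 43.3 FPKM in mouse 1, 40.9, 39.9 and 42.2 FPKM in mouse 2, and 27.3 and 22.1 FPKM in mouse 3 (mean 36.3 ± 10.1 FPKM). For both genes the 2 libraries of mouse 3 were lower than the other 6. The coefficient of variation between mice was 27.8% for Nrxn3, higher than in 89.0% of 13001 tested genes, and 12.9% for Nrxn2, near the median of 12.3% over all of them. Nrxn2 was above Nrxn3 in 7 of 8 libraries, with a ratio of 1.03 in each of mice 1 and 2 and of 1.40 in mouse 3.

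Among the neuroligins, Nlgn2 made up most of the signal. Its level was 39.2, 39.0 and 41.4 FPKM in mouse 1, 35.1, 36.0 and 39.7 FPKM in mouse 2, and 30.6 and 24.1 FPKM in mouse 3 (mean 34.7 ± 6.57 FPKM). Nlgn3 followed with a mean of 16.6 ± 2.14 FPKM (lowest 13.1, median 17.8, highest 18.6 of 8 libraries). Nlgn1 had a mean of 13.8 ± 2.03 FPKM (lowest 10.7, median 14.5, highest 15.9). In all 3 the libraries of mouse 3 were again the lowest of the 8. Nlgn2 contributed 53.1% ± 1.49 of the summed FPKM of the 3 neuroligins, Nlgn3 25.7% ± 1.07 and Nlgn1 21.2% ± 0.427 (SD, n = 3 mice). These shares moved little between the mice: that of Nlgn2 was 54.4%, 53.5% and 51.5% in mice 1, 2 and 3.

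The 4 LRRTMs had nearly equal mean levels when transcripts were summed, whereas by its highest transcript Lrrtm4 had a mean of 6.91 FPKM. Lrrtm2 had a mean of 12.7 ± 0.943 FPKM (lowest 10.6, median 12.8, highest 15.0), Lrrtm1 of 12.2 ± 1.61 FPKM (lowest 9.50, median 12.8, highest 14.8), Lrrtm3 of 12.1 ± 0.838 FPKM (lowest 10.5, median 12.0, highest 13.5) and Lrrtm4 of 10.4 ± 0.606 FPKM (lowest 9.67, median 10.4, highest 11.5). Each contributed 21.9% to 26.8% of their summed FPKM in the mean of the mice, and 20.6% to 32.4% in single libraries. Together the 4 LRRTMs summed to 47.5 ± 2.28 FPKM, against 65.1 ± 10.7 FPKM for the 3 neuroligins and 76.9 ± 15.3 FPKM for Nrxn2 and Nrxn3. The coefficients of variation of Lrrtm4 (5.82%), Lrrtm3 (6.91%) and Lrrtm2 (7.41%) were lower than the median over all tested genes, whereas that of Lrrtm1 (13.2%) was close to it.

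**Figure D1:**
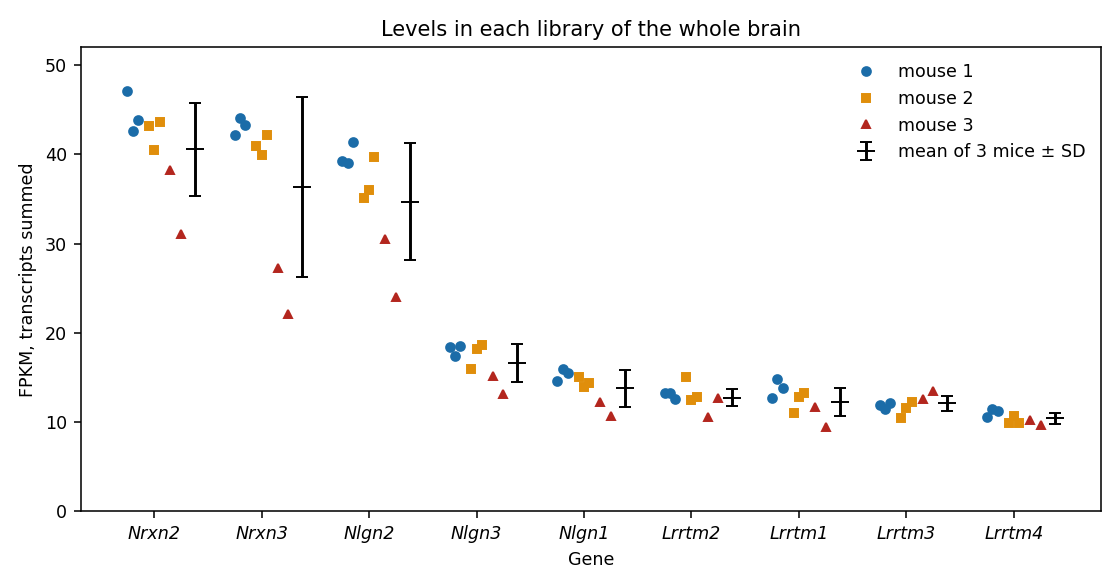
FPKM of each gene, summed over its transcripts (vertical axis), in each library of mice 1, 2 and 3, ordered by mean. Bars give the mean of the 3 mouse means ± SD. Nrxn2, Nrxn3 and Nlgn2 lie at 22.1 to 47.1 FPKM and the 6 other genes at 9.50 to 18.6 FPKM, with mouse 3 lowest for the neurexins and neuroligins.

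Ordered by mean FPKM, the genes ran Nrxn2, Nrxn3, Nlgn2, Nlgn3, Nlgn1, Lrrtm2, Lrrtm1, Lrrtm3 and Lrrtm4. The step from Nlgn2 to Nlgn3 was the only one between neighbours at which the ranges of the 8 libraries did not overlap, with a ratio of means of 2.09. Nlgn3 was above Nlgn1 in 8 of 8 libraries although the ranges overlapped. Lrrtm2 was above Lrrtm1 in only 3 of 8 libraries. Nrxn2 exceeded 87.5% of the tested genes in mean FPKM and Lrrtm4 55.4%, so that all 9 lay in the upper part of the distribution. For members with a single transcript, the confidence bounds implied 285 to 525 fragments for Lrrtm1 and 1653 to 3336 for Nlgn2 per library, with a counting error of at most 5.92% and 2.46%.

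The overlap of 3 LRRTM genes with alpha-catenin genes bears on their values, since the strand setting used in the estimation was not given in the sources used here. Ctnna2 had 31.0 ± 0.655 FPKM and Ctnna3 1.14 ± 0.315 FPKM, and their exons do not overlap those of Lrrtm1 and Lrrtm3 in the annotation. Ctnna1 had 18.2 ± 0.511 FPKM, and its exons overlap those of Lrrtm2. Without strand, reads from exons of both genes cannot be told apart, so the level of Lrrtm2 is uncertain. Exons of Nrxn2, Nrxn3, Nlgn1, Nlgn3 and Lrrtm4 overlap noncoding or unclassified genes whose share of the reads was not measured here.

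The deposited table gives each annotated transcript, and the 3 forms of Nrxn3 were all present. Counts of exons and coding bases, here and below, are not in it and were taken from the GENCODE annotation. The longest, NM_001198587 (7920 bases, 20 exons, 4713 coding bases), had a mean of 12.2 ± 2.90 FPKM, and NM_172544 (6516 bases, 20 exons, 3300 coding bases) had 8.02 ± 2.05 FPKM. The short form from the third start, NM_001252074 (5144 bases, 7 exons, 1701 coding bases), had 16.1 ± 5.19 FPKM and took the largest share, 44.1% ± 2.24 of the FPKM of the gene. Its start inside the gene and few exons are the arrangement of a beta-neurexin. In mouse 3 the 3 forms were at 0.639, 0.614 and 0.537 of the mean of mice 1 and 2, in the order above, values that were given no test of their own. The division between forms was less even within mouse 3 than between mice: the short form took 34.5% in library 1 and 49.5% in library 2 of mouse 3, the lowest and the highest of all 8 libraries. Estimates of single forms divide shared reads and are less certain than their sum.

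Nrxn2 transcripts in the table share a single start, and the forms differ by their exons. NM_001205234 (6660 bases, 23 exons) took 78.3% ± 3.26 of the FPKM and NM_001205235 (6060 bases, 22 exons) 21.7% ± 3.26. NM_020253 (6084 bases, 23 exons) was at 0.00176 FPKM or lower in every library, with upper bounds of at most 0.0300 FPKM. The main form was at 0.748 of the mean of mice 1 and 2 in mouse 3 and the second form at 0.991, ratios that were given no test. The second form was at 10.2 and 7.21 FPKM in libraries 1 and 2 of mouse 3 and at 7.14 to 11.4 FPKM in the others. All 3 Nrxn2 forms are long, with 4509 to 5109 coding bases, so a short Nrxn2 transcript was not analysed here.

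Both transcripts of Nlgn1 were expressed, with 2 annotated starts. NM_001163387 (4603 bases, 6 exons, 2442 coding bases) took 61.7% ± 1.62 of the FPKM and the longer NM_138666 (5630 bases, 8 exons, 2529 coding bases) 38.3% ± 1.62. In mouse 3 they were at 0.793 and 0.732 of the mean of mice 1 and 2. Lrrtm4 was made up mostly of NM_001134743, which spans the whole gene with 3 exons and 1773 coding bases, at 66.3% ± 1.20. NM_178731, with 2 exons and 1554 coding bases, ends near the start of the gene at position 80024932 and took 27.7% ± 2.95, and NM_001282102, which ends at the same position and has 1557 coding bases, took 5.97% ± 2.65. The remaining 5 genes, Nlgn2, Nlgn3, Lrrtm1, Lrrtm2 and Lrrtm3, have a single transcript in the table.

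**Figure D2:**
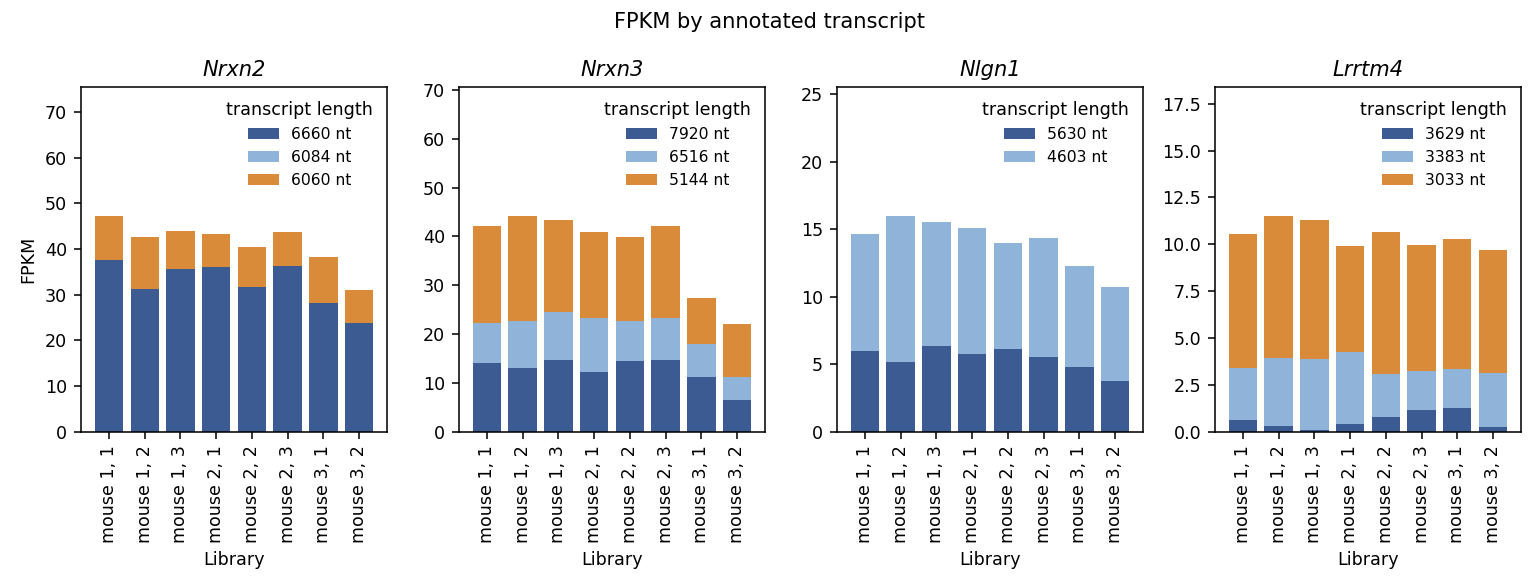
FPKM of each annotated transcript (stacked, vertical axis, scaled separately for each gene) in each library, for the 4 genes with more than 1 transcript. Colours mark transcripts by length in nucleotides. The 3 Nrxn3 forms are all lower in mouse 3, and the 6084-base form of Nrxn2 is too low to be seen.

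Because the design holds a single condition, the only comparison it allows is between the 3 mice. The moderated F-test of limma was applied to log2(FPKM + 1), with Benjamini-Hochberg adjustment over the 13001 genes whose mean reached 1 FPKM. Libraries of a mouse are not independent animals. The p-values set the differences between mice against the spread of libraries within a mouse, and so describe these 3 mice only. Of the 9 genes, 3 differed between mice at an adjusted p under 0.05 (33.3%), against 25.5% of all tested genes. All 3 were lower in mouse 3 than the mean of mice 1 and 2, against 11.3% of all tested genes called in that direction. Nrxn3 differed most, by -0.75 ± 0.09 (SE) on the log2 scale (adjusted p = 0.00629), which is a ratio of 0.594 in FPKM + 1. Nlgn2 differed by -0.48 ± 0.10 (adjusted p = 0.0234) and Nlgn1 by -0.35 ± 0.08 (adjusted p = 0.0308).

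The other 6 genes did not pass the test. Nrxn2 stood at -0.33 ± 0.09 (limma adjusted p = 0.0667), Nlgn3 at -0.31 ± 0.09 (0.0670) and Lrrtm1 at -0.28 ± 0.11 (0.114). Lrrtm2 stood at -0.17 ± 0.10 (0.367) and Lrrtm4 at -0.08 ± 0.07 (0.324). Lrrtm3 was the only gene with a higher mean in mouse 3, at 0.15 ± 0.08 (0.301), and this sign turned to -0.13 in TPM, values per length in which every library sums to the same total. The median difference over the 9 genes was -0.31, against 0.02 over all tested genes. Both libraries of mouse 3 lay below the other 6 for 5 genes, Nrxn2, Nrxn3, Nlgn1, Nlgn2 and Nlgn3 (55.6%, against 21.7% of all tested genes), and above them for Lrrtm3 (26.5% of all tested genes). For Lrrtm1, Lrrtm2 and Lrrtm4 the libraries of mouse 3 overlapped those of the other mice. The values over all tested genes were not matched for transcript length, and longer transcripts were lower in mouse 3. After the length trend was removed, Nrxn2 stood at -0.12, Nlgn3 at -0.24 and Lrrtm1 at -0.32. Lrrtm2 then stood at -0.01, Lrrtm4 at -0.07 and Lrrtm3 at 0.23, against a median of -0.0081 over all tested genes. None of these 6 was called in that setting.

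The call for Nrxn3 was retained under all 15 alternative settings, with adjusted p-values of 0.00385 to 0.0477 from limma. Nlgn2 was called under 11 of them and Nlgn1 under 6. When library 2 of mouse 3 was left out, Nrxn3 alone was called among the 9 (-0.61 ± 0.07, adjusted p = 0.0477), and the number of genes called over the whole table fell from 3310 to 126. Without library 1 of mouse 3, Nrxn2 and Nrxn3 stood at -0.47 and -0.90, and Nlgn1, Nlgn2 and Nlgn3 at -0.45, -0.65 and -0.41. Lrrtm1, Lrrtm2, Lrrtm3 and Lrrtm4 then stood at -0.42, -0.05, 0.20 and -0.12. Without any 1 of the 3 libraries of mouse 1 only Nrxn3 was called, against 12.9% to 14.7% of all tested genes. Nlgn2 moved to -0.32 ± 0.09 without library 2 of mouse 3 (limma adjusted p = 0.141) and lost its call without each library of mouse 1 (0.0525 to 0.0613). Nlgn1 lost its call without those libraries and without library 2 or 3 of mouse 2 (0.0503 to 0.173). After the trend of each library with transcript length was removed, Nrxn3 (-0.61 ± 0.07) and Nlgn2 (-0.35 ± 0.08) were still called. These were 2 of the 9 genes, against 20.3% of all tested genes. Nlgn1 was then not called (-0.23 ± 0.07, limma adjusted p = 0.0862). With the library number as a replicate block, Nlgn1 was likewise not called (adjusted p = 0.0644).

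In TPM, 8 of the 9 genes were called, all but Lrrtm3, against 42.3% of all tested genes. That scaling moved the median of all tested genes to -0.26 in mouse 3 and the split of all called genes from 1835 higher and 1475 lower to 718 higher and 4775 lower. Relative to that median, Nrxn3 was at -0.81, Nlgn2 at -0.53, Nlgn1 at -0.41 and Lrrtm3 at 0.13.

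**Figure D3:**
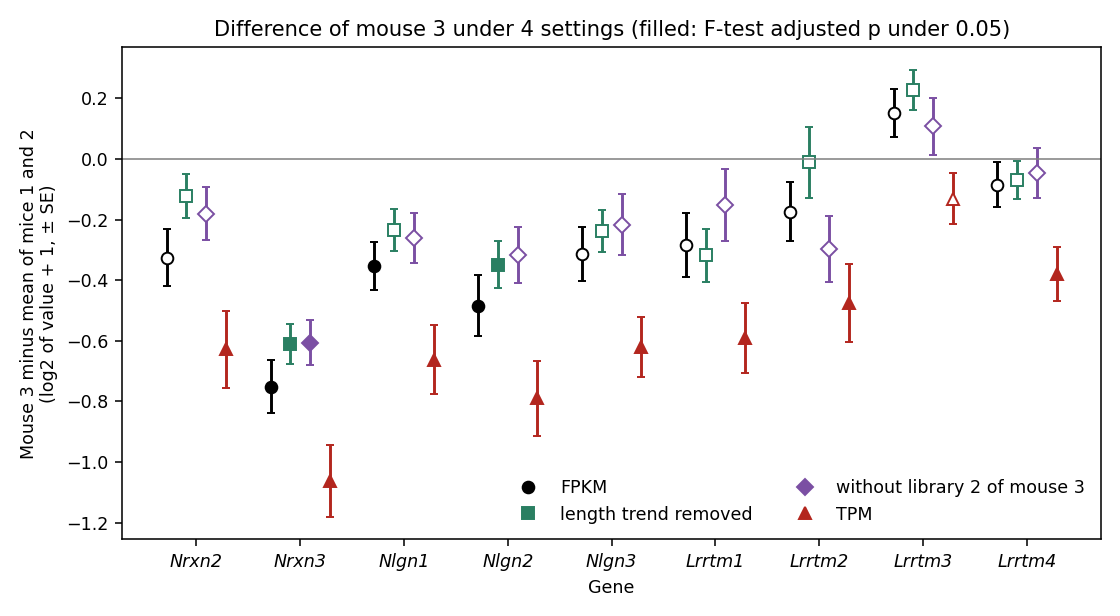
Mouse 3 minus the mean of mice 1 and 2 for each gene, on the log2 scale with a pseudocount of 1, ± SE, for FPKM, FPKM with the length trend removed, FPKM without library 2 of mouse 3, and TPM. Filled symbols mark an F-test adjusted p under 0.05. Nrxn3 is filled under all 4 settings (-0.75, -0.61, -0.61 and -1.06).

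Cell type markers also differed between the mice. Of 5 neuron markers, 2 passed the limma test (3 at an unadjusted p under 0.05), both lower in mouse 3: Syt1, the calcium sensor of transmitter release, by -0.73 ± 0.09 and Rbfox3, the antigen of neuronal nuclei, by -0.49 ± 0.08. Snap25 (-0.12), Slc17a7 (-0.22) and Slc32a1 (-0.33) did not pass. Astrocyte markers were higher in mouse 3 for 4 of 4 genes (Gfap by 1.03 ± 0.09) and oligodendrocyte markers for 2 of 4 (Mbp, a myelin protein, by 1.27 ± 0.09), with 4 of 4 in each set at an unadjusted p under 0.05. Of the microglia markers 1 of 4, Cx3cr1, was called higher (2 of 4 at an unadjusted p under 0.05), and of the endothelial markers 0 of 4 (1 of 4 at an unadjusted p under 0.05). Averaged as deviations on the log2 scale from the mean of the 8 libraries, Nrxn2 and Nrxn3 stood at -0.26 and -0.55 in libraries 1 and 2 of mouse 3, the neuroligins at -0.17 and -0.41, the LRRTMs at -0.07 in both and the neuron markers at -0.22 and -0.35. What part the cell type markers have in the differences of the 9 genes was not tested.

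**Figure D4:**
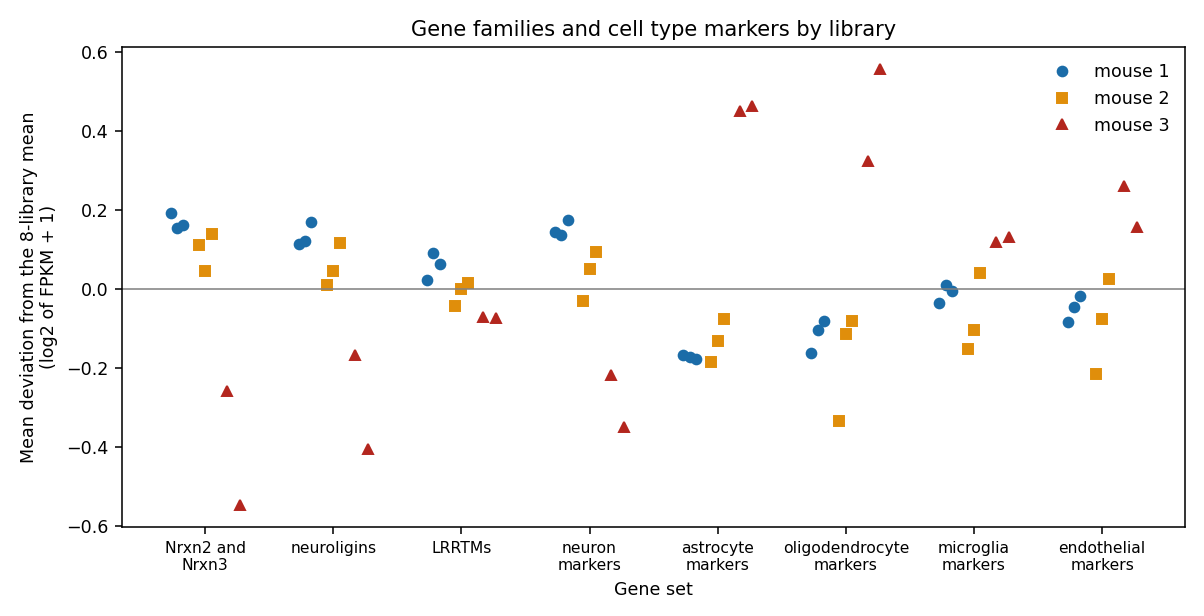
Mean deviation from the 8-library mean on the log2(FPKM + 1) scale (vertical axis) for the 3 groups of synaptic genes and 5 sets of cell type markers, with 1 point per library. In mouse 3, Nrxn2 and Nrxn3, the neuroligins and the neuron markers lie below 0, the LRRTMs lie just below it, and the markers of glia and endothelial cells lie above it.

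The secreted and membrane-bound partners of neurexins ranged from 0.726 to 54.2 FPKM. Of 14 ligands, 13 were tested and 2 differed between mice, both lower in mouse 3 (15.4%, against 25.5% of all tested genes called and 11.3% called lower), with a median difference over the list of -0.14. They were Car10, a carbonic anhydrase-related protein, at 30.5 ± 3.88 FPKM (-0.32 ± 0.07, limma adjusted p = 0.0335) and Nxph4, a neurexophilin, at 4.99 ± 0.796 FPKM (-0.24 ± 0.09, adjusted p = 0.0466). The F-test covers any difference between the mice, and Nxph4 was at 5.88, 4.76 and 4.34 FPKM in mice 1, 2 and 3. For Nxph4, mouse 2 thus lay nearer to mouse 3 than to mouse 1. The highest ligands were Cbln1, which bridges neurexins and delta glutamate receptors, at 54.2 ± 2.25 FPKM, and Adgrl1, a latrophilin, at 48.1 ± 5.46 FPKM. Neither passed the test (adjusted p = 0.601 and 0.136). Nxph2, the lowest, was below the minimum for testing.

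Proteins that block neuroligins and the glypican that binds Lrrtm4 had means of 3.12 to 4.79 FPKM. Mdga2, which covers the neurexin-binding face of neuroligins, had 4.79 ± 0.674 FPKM and was the only 1 of 3 called (33.3%, against the same 25.5%; -0.29 ± 0.07, limma adjusted p = 0.0384). Gpc4, the glypican, had 3.75 ± 0.303 FPKM and did not pass (adjusted p = 0.652). Mdga1 had 3.12 ± 0.0486 FPKM and a difference of -0.04 ± 0.11. The median difference of the 3 was -0.09.

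Inside the presynaptic terminal, 2 of 6 binding proteins of neurexins differed, both lower in mouse 3 (33.3%, against 25.5% of all tested genes called and 11.3% called lower). Apba2, an adaptor also known as Mint2, had 40.2 ± 4.57 FPKM (-0.29 ± 0.07, limma adjusted p = 0.0396), and Cask, a kinase-like scaffold that binds the neurexin tail, had 11.2 ± 1.73 FPKM (-0.37 ± 0.09, adjusted p = 0.0462). Apba1 (29.1 ± 2.32 FPKM), the second highest, did not pass (adjusted p = 0.179). The median over the list was -0.03.

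On the postsynaptic side, 2 of 5 scaffold genes differed (40.0%, against 25.5% of all tested genes), in opposite directions. Dlg4, the PSD-95 scaffold that binds the tails of neuroligins, was the highest at 169 ± 20.2 FPKM and was higher in mouse 3 (0.29 ± 0.07, limma adjusted p = 0.0408). Dlg3, a related scaffold, was lower (27.7 ± 6.49 FPKM, -0.61 ± 0.09, adjusted p = 0.00999). Dlg2, the second highest at 60.9 ± 5.37 FPKM, did not pass (0.20 ± 0.07, adjusted p = 0.0917). The median over the list was -0.26.

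Of 3 splicing regulators 1 differed (33.3%, against 25.5% of all tested genes), and the shedding protease tested did not pass. Khdrbs3, an RNA-binding protein of the STAR family that regulates neurexin splicing, was the highest of 3 at 49.5 ± 1.49 FPKM and did not pass (0.07 ± 0.08, limma adjusted p = 0.716). Khdrbs1, or Sam68, had 27.3 ± 5.22 FPKM and was lower in mouse 3 (-0.49 ± 0.08, adjusted p = 0.0106). Adam10, a protease that sheds membrane proteins, had 21.2 ± 2.68 FPKM and stood at -0.31 ± 0.08 (limma adjusted p = 0.0593). Mmp9, at 0.358 FPKM, was not tested.

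Among 22 other synaptic organizers, which join synapses through further adhesion systems, 7 differed and all 7 were lower in mouse 3 (31.8%, against 25.5% of all tested genes called and 11.3% called lower). The smallest adjusted p-values from limma were those of Slitrk1 (17.8 ± 3.68 FPKM, -0.52 ± 0.07, adjusted p = 0.00785), Lrrc4c (31.8 ± 5.79 FPKM, -0.47 ± 0.07, 0.0101), Slitrk5 (10.6 ± 2.54 FPKM, -0.60 ± 0.10, 0.0137) and Slitrk3 (11.4 ± 1.83 FPKM, -0.39 ± 0.07, 0.0178). Slitrk proteins and Lrrc4c are leucine-rich repeat proteins that bind presynaptic receptors other than neurexins. The highest of the list were the adhesion proteins Cadm3 (92.9 ± 11.1 FPKM, -0.31 ± 0.07, 0.0302) and Cadm4 (75.7 ± 4.86 FPKM, 0.05 ± 0.09, 0.328). The median over the list was -0.27, against -0.31 over the 9 genes.

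For the gene of each family with the highest mean FPKM, the genes with the most similar profile over the 8 libraries were sought among all 13001 tested genes, by Pearson's r of log2(FPKM + 1). Nrxn2 was most like Lhfpl4 (r = 0.995) and Pip4k2b (r = 0.995), and 115 genes exceeded 0.95. Nlgn2 was most like Tbck (r = 0.993) and Prr36 (r = 0.992), with 442 genes over 0.95. Lrrtm2 was most like Oxr1 (r = 0.988) and Cops2 (r = 0.978), with 10 genes over 0.95. These values describe 8 libraries of 3 mice that share the shift of mouse 3 with transcript length, and carry no test.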

How the data were processed

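Whole-brain RNA of 3 mice was sequenced as 8 libraries (NextSeq500, Kapa mRNA HyperPrep kit). The authors deposited FPKM for 34535 transcripts, each with confidence bounds and a status that was FAIL for 8 values. The deposited coverage is a signal of read depth per base, used here only for depth. The submitters' processing notes name TopHat, Cufflinks and the build mm10, with no versions. The strand setting is not given in the sources used here. Of 23106 genes, 99.3% overlapped their RefSeq locus on GRCm38.

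FPKM were summed over the transcripts of a gene, averaged per mouse and then over mice, and SDs are between mice. FPKM are no counts, and the fragments per gene were estimated from the bounds, taken as 2 SDs either side, so that their errors cover counting only. No library pair differed by as little as counting noise (robust SD of differences in units of that noise 1.23 to 5.72, where 1 is noise alone). The 2 libraries of mouse 3 differed from each other by 3.15, and the other pairs within a mouse by 1.23 to 2.29. From the other mice, library 1 of mouse 3 differed by 3.29 to 4.07 and library 2 by 5.43 to 5.72. Mice were compared with limma 3.58.1 in R 4.3.3 (F-test on log2(FPKM + 1), mean of at least 1 FPKM, Benjamini-Hochberg threshold 0.05), tested on simulated data. A fold change on this scale understates that of low genes. Tables and plots were made with Python 3.11.15, pandas 2.3.3, numpy 2.4.6 and matplotlib 3.10.9.

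Genes named are the 9 members, the 2 highest of each partner list and up to 4 of each list that passed the test, cell type markers, and the 2 genes most like the highest member of each family. Mdga1, Nxph2 and the alpha-catenin genes lie outside that rule. From the partner lists, 2 genes are not reported here and were left out of the counts. The members and lists were chosen with earlier results of these data known. Alternatives were a pseudocount of 0.1, no minimum or a minimum of 0.1 FPKM, TPM (each library's FPKM scaled to the same total), removal of the trend with length (lowess, span 0.3), the library number as a replicate block, the highest transcript, and leaving out each library.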

Additional observations from a re-analysis of the deposited data

Results flagged for a closer look

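Over the 8 libraries, 23 levels of genes, families and transcripts were searched for a library far from the rest by Dixon's test, which flags about 1 in 20 by chance, and 2 were flagged. The longest Nrxn3 transcript, NM_001198587, was at 6.52 FPKM in library 2 of mouse 3, where the nearest other library, the other one of mouse 3, was at 11.2 FPKM. The Nrxn2 transcript NM_020253 was at 0.00176 FPKM in library 3 of mouse 1, with the next highest at 0.00061 FPKM, and all of its values had a lower bound of 0.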

How the results depend on the processing

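The number of genes that differed between mice was 3310 and ranged from 126 (without library 2 of mouse 3) to 3873 (without library 1 of mouse 2) when single libraries were left out. Among the 9 genes the number was 3 and ranged from 1 to 5. In TPM, 5493 genes (42.3%) and 8 of the 9 were called, and Lrrtm3 turned to -0.13. TPM divides each library by its summed FPKM. That sum was 384885 and 409889 in libraries 1 and 2 of mouse 3 and 295541 to 345572 in the others. Why the sums differ, and what caused the changes when single libraries were left out, was not tested. The other settings that kept all 8 libraries left the count over all genes within 1.5 times, and the sign of the difference of the other 8 genes was negative under all 15 alternatives. With the library number as a replicate block, 2995 genes and 2 of the 9 (Nrxn3 and Nlgn2) were called. For same-numbered libraries of different mice, deviations from the mouse means correlated at 0.0028 to 0.107, and 1 of 7 pairs exceeded 0.1. For different-numbered libraries they correlated at -0.135 to 0.0645, and 0 of 14 pairs exceeded 0.1. What the numbers stand for is not given in the sources. With highest transcripts, Nlgn1 was not called (limma adjusted p = 0.122).

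Taking the highest transcript in place of the sum lowered the mean FPKM of Nrxn3 from 36.3 to 16.4, of Nlgn1 from 13.8 to 8.49, of Lrrtm4 from 10.4 to 6.91 and of Nrxn2 from 40.6 to 31.8. Leaving out a library moved no member's mean FPKM and no family share by more than the SD between mice, whereas 5 transcript shares moved by more, among them that of the short Nrxn3 form (41.6% and 46.6% without library 2 or 1 of mouse 3). Fragments can be divided between transcripts only where these differ, and reads of overlapping genes cannot be told apart without strand. With 3 animals and a single condition, a difference of mouse 3 and a difference in the cell type makeup of its sample cannot be told apart.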
